A study of Mus musculus with 16 samples.

Results

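Plasmacytoid dendritic cells (pDC) of WT mouse spleen were compared with the classical dendritic cells of the same organ and genotype. Libraries were chosen by their labels alone: both WT libraries labelled pDC against the 6 WT libraries of the 3 classical groups, labelled Dec205, Esamlo and Esamhi, with 2 libraries in each. These are 8 of the 16 libraries of the series, which also holds the same 4 subsets with the genotype label CKO, for the transcription factor Etv6 named in the series title. All 8 libraries here are labelled WT and spleen, and the labels name no strain, age, sex, treatment or sort gate. Nothing in the labels ties a library to an animal. The p-values below therefore rest on the spread within pairs of libraries, and that spread may be technical only. Dec205 is the product of Ly75, a surface lectin of the cross-presenting classical cell (cDC1). ESAM is an adhesion molecule that divides the other classical lineage (cDC2) into ESAM-low and ESAM-high cells.

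Both kinds of dendritic cell depend on the receptor Flt3. Plasmacytoid cells are known for the rapid secretion of type I interferon after Toll-like receptors (TLRs) in their endosomes meet viral nucleic acid, and their identity rests on the E protein Tcf4 with Spib, Runx2 and Irf8. Classical cells present antigen to T cells, carry CD11c (Itgax), and use Id2, an inhibitor of E proteins, together with Zbtb46 and Batf3.

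The 8 libraries held 14434287 to 19578517 counts and 12806 to 14657 detected genes. In a principal component analysis of log2 CPM (counts scaled to a common library size with TMM factors), the first component took 55.6% of the variance. It placed the pDC libraries at 166.2 and 172.8 and all classical libraries between -62.09 and -47.55. The root mean square difference in log2 CPM between group means was 2.19 from pDC to Dec205, 2.01 to Esamlo and 2.09 to Esamhi, against 1.45 and 1.47 from Dec205 to the ESAM groups and 0.75 between these. Counts were spread most evenly in pDC, where the top 10 genes held 7.09% to 7.15% of a library, compared with 14.5% to 15.5% for Dec205 and 9.19% to 10.7% for the ESAM groups. Replicates lay furthest apart in Dec205, with a biological coefficient of variation of 39.9%, against 29.4% for pDC, 20.3% for Esamlo and 12.7% for Esamhi.

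The labels were first checked against the marker genes. Siglech (Entrez 233274, chromosome 7 from 55768154 to 55779448, GRCm38), a sialic acid-binding lectin that marks mouse pDC, stood at 5417 and 5637 CPM in the pDC libraries. The classical libraries had 1.02 and 1.76 CPM (Dec205), 5.81 and 6.8 (Esamlo) and 0.75 and 0.882 (Esamhi). The groups did not overlap, and among genes averaging 3 or more in log2 CPM Siglech had the largest positive difference, 2865-fold (log2 fold change 11.48, SE 0.11, n = 2 against 6, edgeR quasi-likelihood adjusted p = 1.26e-09). Itgax (Entrez 16411, chromosome 7 from 128129526 to 128150657), the integrin chain CD11c, was at 144 and 111 CPM in pDC. It was at 323 and 301 in Dec205, 876 and 865 in Esamlo and 933 and 867 in Esamhi. Itgax was thus present in pDC and lowest there, 4.92-fold below the classical mean (log2 fold change -2.30, SE 0.11, adjusted p = 1.42e-06). In a bulk sample of this kind, fewer cells of a type and less RNA per cell cannot be told apart.

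The other pDC markers were higher as well. Ly6d, a GPI-anchored surface protein, was at 2331 and 2193 CPM in pDC and at 13.2 to 25.2 in the classical libraries. Bst2 (tetherin), which holds budding virus at the membrane and is the antigen of common pDC antibodies, was at 1180 and 1131 CPM against 31.3 to 50.3. Ccr9, the receptor for the gut and thymus chemokine CCL25, was at 1619 and 1467 CPM, with 79.8 and 99.2 in Dec205 and 7.32 to 24.7 in the ESAM groups. Pacsin1, an adaptor of membrane traffic, stood 101-fold and Cox6a2, a subunit of cytochrome c oxidase, 958-fold above the classical mean. Cox6a2 lies beside Itgad and Itgax, and without strand information reads of overlapping transcripts there cannot be separated. Klk1, a kallikrein protease, had 532 and 525 CPM in pDC, 0.153 and 0.136 in Dec205, and no count in the 4 ESAM libraries; reads it shares with Klk1b27 cannot be assigned with certainty. With Tcf4, described below, all 8 pDC markers lay above every classical library.

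Markers of the classical subsets went the other way in most cases. Xcr1, the chemokine receptor of cDC1, was at 2.09 and 0.252 CPM in pDC and at 1283 and 1231 in Dec205. Esam had no count in pDC and 144 and 151 CPM in Esamhi. Its level averaged over the classical groups was at least 828-fold higher than the pDC limit. That limit is 3 counts summed over both pDC libraries, the floor used throughout for a side at 0. Bounds for genes at 0 in pDC use the arithmetic mean of the classical groups' CPM, whereas fold changes of the contrast rest on mean log2 values. Clec4a4, the cDC2 lectin 33D1, was likewise at 0 in pDC, at least 1380-fold below that arithmetic mean. Clec9a, the receptor for dead cells that marks cDC1, was not low: pDC had 125 and 126 CPM, between Dec205 (230 and 216) and the ESAM groups (0.623 to 10.5). Sirpa, the inhibitory receptor of cDC2, was at 467 and 435 CPM in pDC, above Dec205 (34 and 81.2) and below the ESAM groups (1326 to 1483), so the mean contrast gave -0.08 (adjusted p = 0.819).

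Promoters of pDC markers were read for the E-box CAGGTG, the kind of site that E proteins such as Tcf4 bind. The 4 shown are members of the pDC marker set, picked because their RefSeq window (250 bases before to 50 after a RefSeq start site, GRCm38.p6, 5′ to 3′ on the strand of the gene) holds it. Capitals mark CAGGTG or its reverse complement CACCTG, and in Bst2 also the core of the interferon-stimulated response element.
Siglech (chr7:55767934-55768233, plus strand): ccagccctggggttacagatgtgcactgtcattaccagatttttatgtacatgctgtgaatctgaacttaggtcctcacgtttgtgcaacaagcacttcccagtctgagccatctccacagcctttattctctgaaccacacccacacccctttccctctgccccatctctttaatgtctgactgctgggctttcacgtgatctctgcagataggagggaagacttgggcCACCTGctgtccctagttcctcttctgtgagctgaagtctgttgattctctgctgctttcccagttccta
Ccr9 (chr9:123766961-123767260, plus strand): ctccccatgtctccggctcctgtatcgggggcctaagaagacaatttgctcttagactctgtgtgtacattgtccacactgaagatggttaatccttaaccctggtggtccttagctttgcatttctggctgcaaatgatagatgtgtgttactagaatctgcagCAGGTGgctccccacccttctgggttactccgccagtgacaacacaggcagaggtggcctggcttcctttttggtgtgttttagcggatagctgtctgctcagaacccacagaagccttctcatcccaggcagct
Klk1 (chr7:44225110-44225409, plus strand): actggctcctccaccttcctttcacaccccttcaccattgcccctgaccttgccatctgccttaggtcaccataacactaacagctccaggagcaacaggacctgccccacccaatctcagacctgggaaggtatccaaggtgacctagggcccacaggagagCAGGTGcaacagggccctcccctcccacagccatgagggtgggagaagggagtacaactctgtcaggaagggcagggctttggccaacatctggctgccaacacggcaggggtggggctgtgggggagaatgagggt
Bst2 (chr8:71537423-71537722, minus strand): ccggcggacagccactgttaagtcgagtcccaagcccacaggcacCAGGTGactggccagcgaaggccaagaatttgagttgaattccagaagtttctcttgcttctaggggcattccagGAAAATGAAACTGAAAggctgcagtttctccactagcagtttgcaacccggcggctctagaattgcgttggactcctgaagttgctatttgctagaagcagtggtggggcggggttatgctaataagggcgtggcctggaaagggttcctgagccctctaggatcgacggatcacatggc
Counted from the start site of each window, the E-box began 20 bases before it in Siglech, 85 in Ccr9, 87 in Klk1 and 205 in Bst2. In Siglech that start site lies 30 bases inside the gene span given above, so the E-box there falls within that span. Bst2 held 2 matches to the response element core that overlap, beginning 130 and 124 bases before the start site.

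Over all 32851 promoter windows of the table, 20.2% held CAGGTG on either strand. It was in 524 of the 2499 windows of genes called higher in pDC without overlap, 16.4% of the 2734 windows of those called lower without overlap, and 18.1% of the 13241 windows of tested genes. For the whole tested pDC identity list it was in 8 of 42 windows, near the share of all windows. Among the genes named by size, 4 of 13 windows of the higher genes (Ccr9, Siglech, Sla2 and Timp2) and 3 of 13 of the lower ones held it. CAGCTG, another E-box, was in 16.3% of all windows, 16.2% of the higher and 15.2% of the lower set, and in 6 of 13 windows of the named higher and 3 of 13 of the named lower genes. The response element core was in 3.44%, 3.44% and 3.91%, and GAGGAAGT, an ETS site of the PU.1 and Spib type, in 3.2%, 3.28% and 4.21%. All motifs were searched on both strands, a gene can have several windows, and a match is a stretch of letters and not a bound site.

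Of 13203 tested genes, 6488 (49.1%) were called at an adjusted p under 0.05 in pDC against the equally weighted mean of the 3 classical groups. In pDC, 3040 were higher (23.0% of the tested genes) and 3448 lower (26.1%). The median log2 fold change of all tested genes was -0.01 and that of the called ones 1.24 in size. By at least 16-fold, 466 genes were higher and 765 lower. The contrast averages log2 values, so a gene low in 1 classical group can be called while its libraries overlap. Both pDC libraries lay above all 6 classical libraries for 2484 of the genes called higher (18.8% of the tested genes), and below them for 2678 of those called lower (20.3%). Scaled by library size alone, without TMM, the median log2 fold change was 0.16 and 57.5% of the calls were higher, against 46.9% with TMM; no gene was called in the opposite direction.

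**Figure D1:**
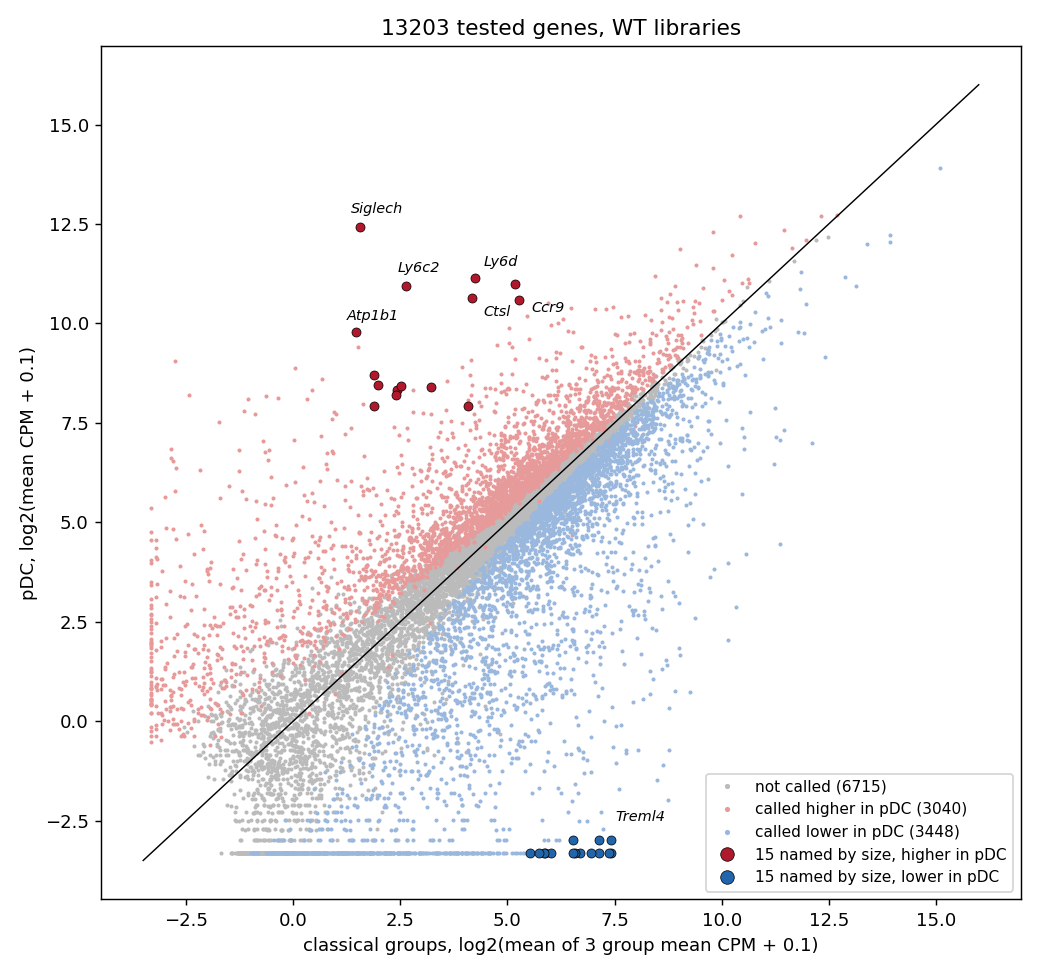
Mean expression of each of 13203 tested genes in the classical groups (x axis) and in pDC (y axis), both as log2(CPM + 0.1). Points above the diagonal are higher in pDC; the dark blue points at the bottom are named genes with 0 or 1 count in the pDC libraries, and Siglech stands furthest above the line among the dark red ones.

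The 15 genes with the largest positive differences were taken among those with libraries that did not overlap and an average log2 CPM of 3 or more. Atp1b1, the beta subunit of the sodium-potassium pump, had 875 and 882 CPM in pDC and 0.407 to 3.57 in the classical libraries, 352-fold. Ly6c2, which with Ly6c1 encodes the Ly6C antigen, had 1979 and 1935 CPM against 3.11 to 10.2, also 352-fold; Ly6c1 and Ly6c2 are near-identical and may share reads. Ctsl, a lysosomal cysteine protease, had 1562 and 1613 CPM against 5.8 to 25.8, 94.9-fold. Sla2, an adaptor that dampens antigen receptor signals, was 95.1-fold and Cmah, which makes the sialic acid form that human cells lack, 59.2-fold higher. Cd8b1, the beta chain of CD8, was 118-fold higher. Also among them were Ly6d, Pacsin1, Rpgrip1 (81.4-fold), Timp2 (78.5-fold), Slc41a2 (67.1-fold), Ccr9 (65-fold) and Clec10a (59.8-fold). Clec10a, a galactose-binding lectin, had 246 and 240 CPM in pDC and 45.8 and 49.5 in Esamlo, but 0.678 to 2.6 in the other classical libraries. With the 6 classical libraries treated as 1 group, Clec10a no longer passed the test (log2 fold change 3.86).

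Of the 15 largest negative differences, 12 genes had no count in either pDC library. Tlr13, the endosomal receptor for bacterial ribosomal RNA, was at 110 to 235 CPM in the classical libraries. The arithmetic mean of its classical groups was at least 2200-fold above the pDC limit. On the same measure Mefv (pyrin, an inflammasome sensor) was at least 1600-fold higher in the classical cells. Zfp366 (DC-SCRIPT, a nuclear cofactor of dendritic cells) was at least 1320-fold and Tbx21 (T-bet) at least 684-fold higher. The others at 0 were H2-M2, Krt80, Hap1, Adgrl3, Spire1, Ehf, Esam and Ocstamp, with bounds from 588-fold (Ehf) to 2130-fold (Krt80). Treml4, Tlr1 and Cxcl9 had a single count in pDC. Their pooled ratios of classical to pDC counts were 6060 (Treml4, 95% interval 1090 to 239000), 3790 (Tlr1, 681 to 150000) and 4720 (Cxcl9, 847 to 186000), intervals that cover counting error only.

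Some transcription regulators separated the lineages sharply, Tcf4 and Id2 among them. Tcf4 (Entrez 21413), the E protein that maintains pDC fate, was at 1411 and 1515 CPM in pDC, 42.7 and 30.2 in Dec205, 88 and 74 in Esamlo and 68.6 and 63.4 in Esamhi, a 25.2-fold difference (log2 fold change 4.66, SE 0.11, adjusted p = 5.10e-08). Id2, which blocks E proteins, went the other way: 13.6 and 17.7 CPM in pDC, 2217 and 2412 in Dec205, 376 and 491 in Esamlo and 535 and 764 in Esamhi, 55.4-fold lower in pDC (log2 fold change -5.79, SE 0.23, adjusted p = 4.90e-07). No pDC library reached a classical one for either gene. Tcf12, a second E protein, was 6.43-fold higher (158 and 143 CPM against 19.1 to 29), whereas Tcf3, the third, gave 0.14 on the log2 scale and was not called.

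Of 23 tested pDC regulators 14 were called higher and 6 lower, with a median log2 fold change of 0.60. Runx2, which governs the exit of pDC from marrow, was at 707 and 661 CPM against 11.1 to 49.9 in the classical libraries. Tsc22d1, a leucine zipper protein, was at 796 and 767 CPM against 15.9 to 74.4, and Spib, an ETS factor, at 925 and 830 CPM against 26 to 136. These 3 genes were 22.1-fold, 19.9-fold and 11-fold higher, and none overlapped. Ets1 (8.9-fold), Bcl11a (2.38-fold) and Irf7, the kinase-activated inducer of interferon genes (598 and 548 CPM against 122 to 177, 3.72-fold), were higher too. Spi1 (PU.1), the ETS factor of myeloid cells, was lower, at 108 and 112 CPM in pDC and 695 to 824 in the classical libraries, 6.84-fold. Cbfb, the partner of Runx proteins, was also called lower, at a log2 fold change of -1.21.

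Irf8 was the most abundant of these regulators, and its level differed widely among the classical groups. It stood at 6819 and 6459 CPM in pDC, 3859 and 3617 in Dec205, 330 and 286 in Esamlo and 83.6 and 76.1 in Esamhi. Irf8 was higher in pDC than in each classical group, by log2 fold changes of 0.83, 4.43 and 6.38, so the mean contrast of 3.88 (SE 0.06, adjusted p = 1.03e-08) covers very unequal gaps. With the 6 classical libraries as 1 group it did not pass the test (log2 fold change 2.27). Zeb2, a repressor of Id2, was at 381 and 401 CPM in pDC and at 278 and 341 in Esamlo, a pairwise difference that was not called, but at 19.5 and 32.3 in Dec205. Etv6, the factor the series is about, had 346 and 349 CPM in pDC and 339 to 509 in the classical libraries; the groups overlapped and the difference of -0.30 (SE 0.09, adjusted p = 0.0211) was lost under 7 of the 19 alternatives. Flt3, the shared growth factor receptor, was at 401 and 403 CPM in pDC and 439 to 721 elsewhere, a log2 fold change of -0.42 (adjusted p = 4.39e-04). The call of Flt3 was lost against a 1.5-fold threshold and with the classical libraries as 1 group (log2 fold change -0.45).

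Of 30 tested regulators of classical cells 19 were lower in pDC and 3 higher, with a median of -1.22. Zbtb46, which marks the classical lineage, was at 8.93 and 12 CPM in pDC and 123 to 255 in the classical libraries, 17.6-fold lower. Batf3, needed for cDC1, was at 0.909 and 0.101 CPM against 63.1 to 161, 193-fold lower. Relb, the noncanonical NF-kB subunit, was 8.11-fold lower. The 3 called higher were Klf2 (1.03 on the log2 scale), Rara (0.43) and Arid3a (2.02). Irf4, which cDC2 need, lay between the classical groups at 127 and 158 CPM, with 21.7 and 8.68 in Dec205 and 348 to 423 in Esamhi, and was not called.

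**Figure D2:**
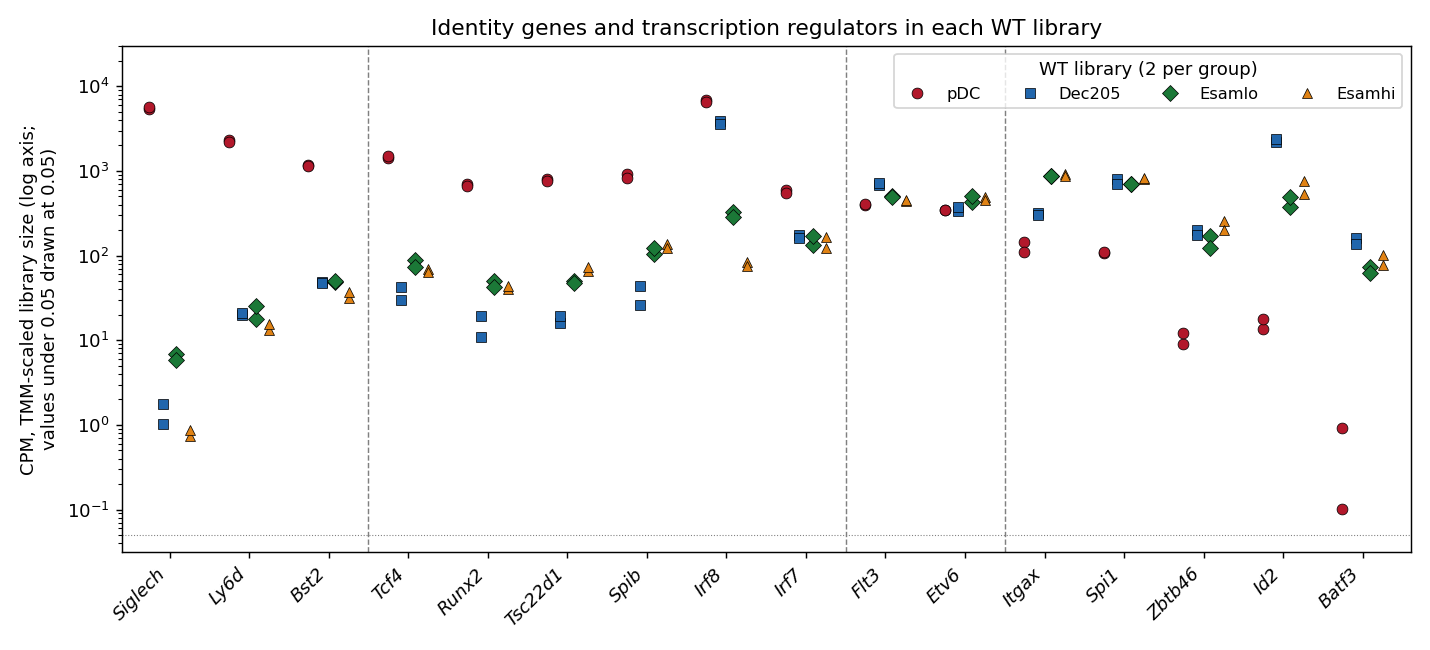
CPM (log axis) of identity genes and regulators in each of the 8 WT libraries, 2 points per group. Tcf4, Runx2, Tsc22d1 and Spib stand apart in pDC, Irf8 is high in pDC and Dec205, Flt3 and Etv6 lie close together in all groups, and Id2, Zbtb46 and Batf3 are lowest in pDC.

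For the gene lists, the share of members called higher or lower was read against the 23.0% and 26.1% of all tested genes. Of the 39 tested genes of the pDC identity list 37 were higher, with a median log2 fold change of 4.73; the list was drawn from genes known for pDC and with earlier results of these data known, so it is no independent evidence. The 2 exceptions were Ptprc (-1.01, called lower, libraries overlapping) and Pdcd4 (-0.27, not called). Of 38 shared classical identity genes 28 were lower and 5 higher (median -2.57). Of 29 cDC1 genes 23 were lower and 3 higher (median -2.52), and of 27 cDC2 genes 17 were lower and 8 higher (median -2.62). The aminopeptidase Anpep, with 0.214 and 0.202 CPM in pDC against 98.3 to 246, was 854-fold lower. Treating the 6 classical libraries as 1 group, whose spread then holds the gaps between subsets, gave 6 cDC1 and 9 cDC2 genes lower, 8 pDC regulators higher and 11 classical regulators lower. In the same setting endosomal sensing, described next, had 6 higher and 8 lower, lysosomal genes 15 and 3, growth factor and cytokine receptors 6 and 11, and adhesion genes 5 and 22. There were 2 higher and 6 lower C-type lectins, 5 and 9 genes with activating or inhibitory motifs, 4 and 4 of B cell receptor signalling, 4 and 2 chemokine receptors, 2 and 7 of glycolysis and 3 and 2 of oxidative phosphorylation. Against a 1.5-fold threshold endosomal sensing had 9 higher and 10 lower, lysosomal genes 16 and 5, and oxidative phosphorylation 1 and 1.

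**Figure D3:**
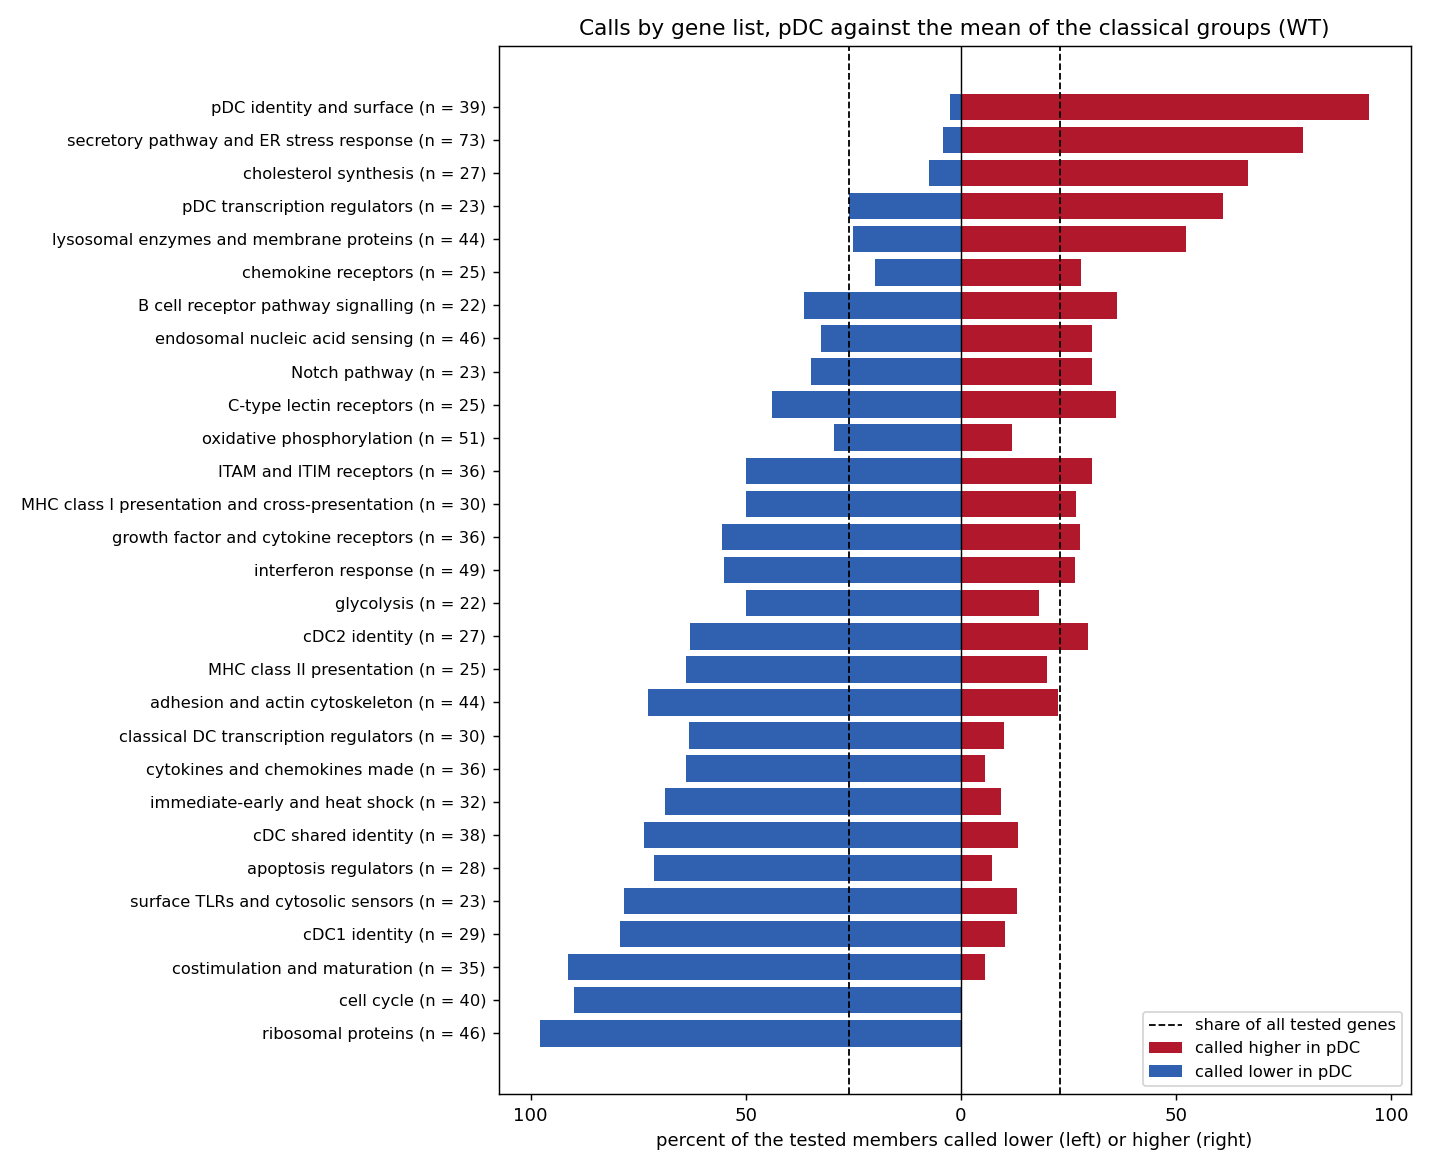
Percent of the tested members of each gene list called lower (left, blue) or higher (right, red) in pDC against the mean of the classical groups. Dashed lines mark the shares of all tested genes, 26.1% lower and 23.0% higher; pDC identity, secretory pathway and cholesterol synthesis lead on the right, and ribosomal proteins, cell cycle and costimulation on the left.

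The endosomal sensors of nucleic acid differed from one receptor to the next. Tlr7, the receptor for single-stranded RNA, was at 343 and 362 CPM in pDC, 1.91 and 17.6 in Dec205, 69.5 and 93.9 in Esamlo and 122 and 155 in Esamhi. Tlr7 did not overlap and was 7.3-fold higher (log2 fold change 2.87, SE 0.43, adjusted p = 8.35e-04), but its pairwise difference from Esamhi (1.35) was not called, nor was the mean difference with the classical libraries as 1 group. Tlr9, the receptor for CpG DNA, had low counts in every library. It was at 6.31 and 9.07 CPM in pDC, 2.21 and 7.79 in Dec205, 6.18 and 8.39 in Esamlo and 6.11 and 7.94 in Esamhi. How reads were assigned to genes is not given, and the Tlr9 counts were not checked against the reads. No difference in Tlr9 could be detected (log2 fold change 0.28, SE 0.46, adjusted p = 0.656). Tlr12, which senses profilin of parasites, was as high in Dec205 (187 and 183 CPM) as in pDC (199 and 171), with 1.4 to 11.8 in the ESAM groups.

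Other endosomal receptors were nearly absent from pDC. Tlr3, for double-stranded RNA, was at 0.374 and 0 CPM in pDC against 254 and 297 in Dec205 and 6.85 to 19.3 in the ESAM groups. Tlr8 had no count in pDC and 1.76 to 61.6 CPM in the classical libraries. For Tlr8 the arithmetic mean of the classical groups was at least 284-fold above the pDC limit. Several proteins that carry or tune these receptors were higher in pDC: Unc93b1, their chaperone to the endosome, by 1.59-fold, Slc15a4, a transporter needed for pDC interferon, by 2.53-fold, and the nucleases Pld3 and Pld4 by 3.47-fold and 2.99-fold. Pld4 was at 2663 and 2676 CPM in pDC and 778 to 1017 elsewhere. The adaptor Myd88 gave -0.08 (adjusted p = 0.597), while Irak4 (2.1-fold) and Irf5 (1.82-fold) were lower in pDC. Over the whole list of 46 genes, 14 were higher and 15 lower with a median of 0.10; on library size alone the count was 18 higher and 11 lower.

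Surface TLRs and cytosolic sensors were lower in 18 of 23 cases, with 3 higher and a median of -1.88. Tlr2, for bacterial lipopeptides, was at 10.5 and 15.5 CPM in pDC and 50.2 to 193 in the classical libraries, 9.21-fold lower. Nlrp3, the inflammasome sensor, was at 5.78 and 7.56 CPM against 36 to 182, 14.6-fold lower. Ddx58 (RIG-I) was at 1.98 and 2.42 CPM in pDC, 2.75 and 8 in Dec205 and 75.6 to 119 in the ESAM groups, with log2 differences of -1.30 from Dec205, -5.24 from Esamlo and -5.66 from Esamhi. Ifih1 (MDA5) had the same order, at 15.4 and 10.2, 21.4 and 24.4, and 76.5 to 114 CPM. Tmem173 (STING) was the exception without overlap, 1.57-fold higher in pDC. With the classical libraries as 1 group, 10 of the list were lower and 0 higher.

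**Figure D4:**
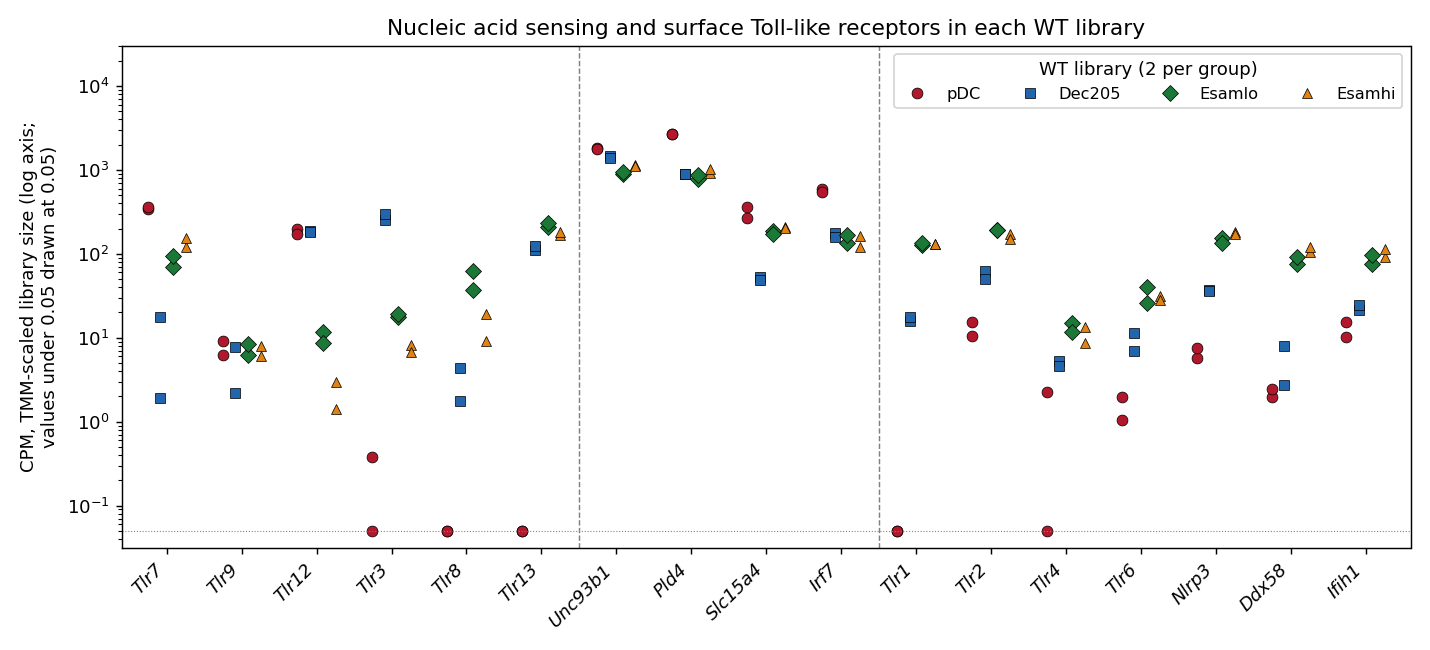
CPM (log axis, values under 0.05 drawn at 0.05) of endosomal receptors, their cofactors, and surface or cytosolic sensors in each WT library. Tlr7, Unc93b1, Pld4, Slc15a4 and Irf7 are highest in pDC, Tlr9 is low in all groups, and Tlr8 and Tlr13 have no count in pDC.

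Interferon genes themselves were at or near 0 in all groups. Of 20 type I and related interferon genes in the table none passed the filter, and 16, among them Ifnb1, had no count in any of the 8 libraries, which allows up to 0.151 to 0.229 CPM per library. Both chains of their receptor were higher in pDC: Ifnar1 was at 450 and 474 CPM against 93 to 160, and Ifnar2 at 598 and 589 CPM against 64.5 to 157, differences of 3.72-fold and 4.97-fold. Ifngr1, the receptor chain for interferon gamma, was at 94.4 and 75.8 CPM in pDC and 945 to 1435 in the classical libraries, 13.2-fold lower.

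Genes of the interferon response were split: of 49 tested, 13 were higher, 27 lower and the median was -0.83. Ifi44 (57.1 and 62.9 CPM against 0.85 to 4, 28.6-fold) and Bst2 (26.6-fold) were the largest positive differences, and the signalling genes Stat2 (2.46-fold) and Irf9 (1.65-fold) were higher as well. Ifitm3, a membrane protein that blocks viral entry, was 12.6-fold lower, at 21 and 21.4 CPM against 86.2 to 581. Gbp2, a guanylate-binding protein, was 66.1-fold lower. Isg15, Ifit1 and Oas3 were lower than in the ESAM groups but not called against Dec205; Isg15, for example, was at 15.1 and 15.9 CPM in pDC, 17.1 and 19.2 in Dec205 and 40.4 to 86.6 in the ESAM groups. With the classical libraries as 1 group, 10 were higher and 10 lower.

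Most genes of the secretory pathway list were called higher in pDC. Of 73 tested genes of this list 58 were higher and 3 lower, with a median of 0.64 against -0.01 over all genes; 38 of the 58 lay above every classical library. Xbp1, the transcription factor that expands the endoplasmic reticulum, was at 1195 and 1123 CPM in pDC and 174 to 323 in the classical libraries, 5.27-fold (log2 fold change 2.40, SE 0.08, adjusted p = 2.54e-07). Sec24d, a coat component of transport vesicles, was 8.37-fold and Edem2, which marks misfolded glycoproteins for disposal, 3.46-fold higher. Summed over the 74 genes in the table, Dec205 (19800 and 19600 CPM) was near pDC (21000 and 21500). The ESAM groups had 10800 to 12100 CPM. Dec205 was near pDC for the chaperones as well. Hsp90b1 was at 1372 and 1336 CPM in pDC, 1062 and 1084 in Dec205 and 378 to 473 in the ESAM groups. Hspa5 (BiP) was highest in Dec205 (2557 and 2489 CPM), with 2089 and 2065 in pDC and 1056 to 1211 in the ESAM groups. Against a 1.5-fold threshold 26 of the list were called higher, and with the classical libraries as 1 group 19.

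Several genes best known from antibody-secreting and B-lineage cells were higher in pDC. Jchain, which links antibody polymers, was at 1222 and 1469 CPM in pDC and 30.6 to 210 in the classical libraries, 19-fold. Mzb1, a chaperone of the reticulum, was at 97.3 and 97.2 CPM against 6.27 to 18.6, and Sdc1 (CD138) at 32.9 and 24.1 CPM against 0 to 3. The summed level of the 7 plasma cell genes in the table was 1520 to 1780 CPM in pDC and 94.6 to 686 in the classical libraries, 5 of them being called higher; Prdm1, the master regulator of plasma cells, was at 29.2 and 23.3 CPM against 8.7 to 60.9 and not called. Whether plasma cells contributed to these values was not tested. Dntt, the template-independent polymerase of lymphoid progenitors, was at 279 and 312 CPM in pDC and 0 to 0.268 in the classical libraries. Blnk, the B cell adaptor, was at 365 and 384 CPM against 7.07 to 19.4, 32.6-fold, and the kinase Fyn at 1378 and 1274 against 131 to 170, 8.36-fold. The wider list of B cell receptor signalling was even, with 8 of 22 higher and 8 lower.

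Marker sums of other cells were as follows. The 16 B cell genes summed to 439 to 498 CPM in pDC and 289 to 622 in the classical libraries; Ms4a1 (CD20) was at 25.8 and 22.4 CPM in pDC against 33.2 to 53. Of the 16 tested, 4 were higher and 3 lower. For T cells the 15 genes summed to 108 and 117 CPM in pDC and 125 to 289 elsewhere (1 higher, 2 lower of 15), for NK cells the 18 in the table to 24 to 35.4 against 33.1 to 148 (1 higher, 2 lower of 14). The 20 macrophage genes summed to 501 to 508 CPM against 495 to 1550 (2 higher, 13 lower of 18), and Adgre1 (F4/80) was at 1.02 and 0.0504 CPM in pDC against 14.9 to 341. Neutrophil genes summed to 9.25 to 16.6 CPM against 7.79 to 114 (0 higher, 2 lower of 13), and erythroid and platelet genes to 55.3 to 60 against 18.2 to 59 (0 higher, 1 lower of 5). The monocyte list (7050 to 7460 CPM against 3220 to 6940; 5 higher, 6 lower of 15) includes Ly6c2 and Ly6c1, which pDC are known to express. Vsig4, a marker of tissue macrophages, and Klra4, of NK cells, had no count in any of the 8 libraries. The part of such cells in the differences was not tested.

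Antigen presentation by MHC class II was lower in pDC in 16 of 25 tested genes, with 5 higher and a median of -0.93. Ciita, the master activator of these genes, was at 207 and 167 CPM in pDC and 736 to 936 in the classical libraries, 4.46-fold lower. The class II chains were lower by differing amounts: H2-Eb2 was 25.7-fold lower, H2-Eb1 4.56-fold (2013 and 1900 CPM against 7664 to 10009) and H2-Aa 2.62-fold. H2-Ab1 was at 5005 and 4575 CPM against 12591 to 20914, 3.21-fold lower, and Cd74, the invariant chain, at 15894 and 14958 against 28160 to 48029, 2.24-fold lower. H2-Ob, part of the inhibitor of peptide loading, was 8.25-fold lower, though H2 genes are alike and may share reads. All 5 genes that were higher were cathepsins or regulators: Ctsl, Ctsb (4924 and 5081 CPM against 656 to 1048, 5.64-fold), Ctsd, Ctsh and Rfxank. For MHC class I and cross-presentation 15 of 30 were lower and 8 higher (median -0.17), among the lower ones Wdfy4, needed for cross-presentation of cell-bound antigen, at 65.5 and 65.3 CPM against 477 to 976; against the ESAM groups alone, without Dec205, 11 were higher and 8 lower. That list had 3 lower and 2 higher with the classical libraries as 1 group, and 6 lower and 4 higher against a 1.5-fold threshold.

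Costimulation and maturation genes were lower in 32 of 35 cases, the median being -3.66, or -3.19 with the 3 genes at 0 on 1 side set to their bound. Cd83 was at 124 and 129 CPM in pDC and 3420 to 5434 in the classical libraries, 34.5-fold lower (log2 fold change -5.11, SE 0.07, adjusted p = 7.96e-09). Ccr7, which guides cells to lymph node T zones, was at 86 and 90.4 CPM against 1020 to 3739, 23.8-fold lower. The ligands of CD28 were lower by 374-fold (Cd80, 0.267 and 0.353 CPM against 82.2 to 180) and 31.2-fold (Cd86, 9.2 and 6.95 against 137 to 596). Cd28 itself was higher in pDC, at 45.4 and 71.6 CPM against 1.15 to 7.37. Immediate-early and heat shock genes, which can respond to handling, were lower in 22 of 32 cases and higher in 3 (median -0.89): Egr1 was at 122 and 107 CPM against 1064 to 2178, Dusp1 at 138 and 181 against 2355 to 3486, and Hspa1a at 134 and 105 against 667 to 923. Their part in the maturation differences was not tested.

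Cytokine genes were mostly lower in pDC, 23 of 36 with 2 higher (median -3.32, or -3.16 with the 5 genes at 0 on 1 side set to their bound). The subunits of interleukin 12 went in opposite directions. Il12a (p35) was at 51.6 and 58.1 CPM in pDC and 0 to 1.15 in the classical libraries, 172-fold higher (log2 fold change 7.43, SE 0.64, adjusted p = 3.56e-05). Il12b (p40) was at 0.107 and 0.202 CPM in pDC, 1152 and 1136 in Dec205, 32.5 and 56.2 in Esamlo and 79.5 and 112 in Esamhi, 1038-fold lower in pDC. Neither gene overlapped. Ccl4, a chemokine, was the other higher gene, at 1990 and 1916 CPM against 265 to 781; its neighbour Ccl3 overlaps it in some annotations, and was lower in pDC than in the ESAM groups (92.8 and 98.2 CPM against 141 to 435). Ccl5 was 110-fold lower.

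Of 25 chemokine receptors 7 were higher (28.0%) and 5 lower (20.0%), near the 23.0% and 26.1% of all tested genes. DESeq2 gave 7 higher and 8 lower of 27. Ccr9, Ccr2 (9.26-fold) and Cxcr3 (11.2-fold) were among the higher ones. Cxcr3 was at 156 and 135 CPM in pDC and 93.7 and 106 in Dec205, not called between these, and at 1.97 to 8.27 in the ESAM groups. Ccrl2, a scavenger that presents chemerin, was 132-fold lower. Of 36 growth factor and cytokine receptors 10 were higher and 20 lower (median -0.61). Lifr, for leukaemia inhibitory factor, was at 380 and 457 CPM in pDC, 1.14 and 1.83 in Dec205 and 15.6 to 37.3 in the ESAM groups, 44.1-fold higher. Il7r was 17.4-fold higher (270 and 267 CPM against 8.12 to 31.4). The receptors for stem cell factor and GM-CSF were lower: Kit was at 40.3 and 20.4 CPM against 351 to 905, 18.6-fold, and Csf2ra 6.73-fold, whereas Csf2rb2 was 4.23-fold higher and Csf2rb not called (0.23, adjusted p = 0.0541).

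The Notch pathway was mixed by member, with 7 of 23 higher and 8 lower. Among the receptors Notch1 was at 120 and 119 CPM in pDC and 3.84 to 19 in the classical libraries, 14.7-fold higher, and Notch3 at 47 and 41 CPM against 0 to 0.83, 85.3-fold higher. Notch2, which ESAM-high cells require, was at 68.6 and 39.1 CPM in pDC, 56.9 and 68.7 in Dec205 and 263 to 372 in the ESAM groups. Notch4 was lower, at 0.909 and 0.957 CPM against 129 and 126 in Dec205 and 4.03 to 8.51 in the ESAM groups. The ligands divided as well: Dll4 was at 215 and 169 CPM in pDC and 0 to 4.66 elsewhere, while Jag1 was at 0.0535 and 0 CPM against 13.6 to 61.7. Hes1 (16.4-fold) and Dtx1, both targets of the pathway, were lower, Dtx1 at 5.46 and 7.71 CPM in pDC, 5.72 and 5.76 in Dec205 and 622 and 633 in Esamhi.

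Of 25 C-type lectins 9 were higher and 11 lower (median -3.89, or -3.69 with the 8 genes at 0 on 1 side set to their bound). Of 36 genes with activating or inhibitory motifs or their adaptors 11 were higher and 18 lower (median -1.13). In both lists the shares called higher and called lower exceeded those of all tested genes. The lower ones without overlap included Clec4a4 and Treml4, named above, Clec7a (log2 fold change -6.64) and Siglece (-6.26). Members on the higher side follow. Cd209d, of the DC-SIGN family, was at 287 and 290 CPM in pDC and 0.0678 to 1.47 elsewhere; its relatives may share reads. Lair1, an inhibitory collagen receptor, was at 1321 and 1296 CPM in pDC, 11.1 and 20.4 in Dec205 and 173 to 204 in the ESAM groups, 15.9-fold higher. Tyrobp (DAP12), the adaptor through which Siglech signals, was 3.19-fold higher, at 1490 and 1502 CPM against 292 to 626. Of 44 adhesion and actin genes 32 were lower (72.7%, median of the list -1.36), 27 of them without overlap. The 10 higher ones (22.7%) were near the 23.0% of all tested genes. Cdh1 (E-cadherin) was among the higher ones at 280 and 272 CPM against 0 to 2.71, as was Itgb3 at 125 and 115 CPM against 0 to 54.

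Cell cycle genes had no member called higher and 36 of 40 lower (median -2.96). Mki67 was at 5.35 and 1.76 CPM in pDC, 91 and 87.9 in Dec205, 170 and 166 in Esamlo and 213 and 182 in Esamhi, 40.6-fold lower. Top2a (3.26 and 2.62 CPM against 73.7 to 187) and Cdk1 (1.87 and 0.756 CPM against 31.9 to 52.9) were 46.4-fold and 32.3-fold lower. The 4 not called were Cdk4, Cdk6, Foxm1 and E2f1. Apoptosis regulators were lower in 20 of 28 cases, and the A1 genes most: Bcl2a1b was at 2.19 and 3.38 CPM against 296 to 547, with near-identical copies that may share reads. The proapoptotic Bcl2l11 (Bim) was 1.56-fold higher. Against a 1.5-fold threshold 0 of the apoptosis list were called higher and 15 lower, and with the classical libraries as 1 group 0 and 14.

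Ribosomal protein genes were lower in 45 of 46 cases, all 45 without overlap, by a median of -0.70; 44 were lower on library size alone and 17 against a 1.5-fold threshold. Rps19 (53.2 and 53.9 CPM against 116 to 168, 2.67-fold) and Rplp0 (282 and 293 CPM against 468 to 575, 1.79-fold) are examples; these genes have many processed copies in the genome, with which they may share reads. Oxidative phosphorylation had a small median of -0.17 with 6 higher and 15 lower of 51, which became 10 higher and 7 lower on library size alone. Of 22 glycolysis genes 11 were lower and 4 higher. Ldhb, a lactate dehydrogenase subunit, was at 50.8 and 52.8 CPM in pDC and 0 to 2.46 elsewhere, and Hk3, a hexokinase, at 0 and 0.0504 CPM against 8.14 to 200. Cholesterol synthesis was higher in 18 of 27 cases (median 1.27), all 18 without overlap, among them Dhcr7 (121 and 103 CPM against 13.2 to 19.3, 6.77-fold), Sqle (4.26-fold) and Insig1 (4.28-fold). Lysosomal genes were higher in 23 of 44 and lower in 11 (median 0.50). Summed over the 45 in the table, however, Dec205 (35400 and 33500 CPM) lay above pDC (31100 and 31500). The ESAM groups had 15200 to 20900 CPM. Grn, the precursor of granulins, was at 3917 and 3611 CPM in pDC against 295 to 865. Cd63, a membrane protein of late endosomes, was at 0.214 and 0 CPM against 32.4 to 172.

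Set against each classical group in turn, pDC had 2719 genes higher (20.6%) and 3216 lower (24.4%) than Dec205, 2433 (18.4%) and 3245 (24.6%) against Esamlo, and 2593 (19.6%) and 3335 (25.3%) against Esamhi. The 3 contrasts share the pDC libraries, so only each one's own values are given. In 551 of the genes called against the mean, at least 1 classical group lay on the other side of pDC. Cd8a is one: it was at 193 and 151 CPM in pDC, 786 and 700 in Dec205 and 4.15 to 10.3 in the ESAM groups. Cybb, the catalytic subunit of the phagocyte oxidase, was higher in pDC than in every classical group (1690 and 1721 CPM) but at 789 in both Esamlo libraries against 28.6 and 38 in Dec205. Ccr2 was nearest in Esamlo (174 and 163 CPM against 290 and 301 in pDC), with 6.9 and 7.18 in Esamhi. Csf1r, the receptor of macrophage colony-stimulating factor, was at 12.8 and 19.7 CPM in pDC and 8.85 and 39.6 in Dec205, not called between them, but at 800 and 813 in Esamlo.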

How the data were processed

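RNA of sorted spleen dendritic cells was made into libraries with the SMART-seq v4 kit, per the labels' protocols; that kit amplifies by PCR without molecular identifiers and does not keep strand. The authors deposited a table of unnormalized integer counts, covering 24116 genes in 16 libraries. The submitters' processing notes list mm10 as build and name Bowtie2 2.2.9, Trimmomatic 0.36 and bcl2fastq as tools. How reads were assigned to genes, and by which annotation, is not given in the sources used here.

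The 8 WT libraries were analysed with edgeR 4.0.16 in R 4.3.3: filterByExpr (13203 genes kept, holding at least 99.96% of each library's counts), TMM (factors 0.908 to 1.1) and the two-sided quasi-likelihood F test with 1 coefficient per group, robust estimation and 4 residual df. The Benjamini-Hochberg adjustment ran over every tested gene, and a gene was called under 0.05. The standard error comes from the F statistic. CPM uses TMM-scaled library sizes, and log2 CPM a prior count of 2. The floor of 3 counts equals 0.151 to 0.229 CPM per library and covers counting error only. The script was tested on simulated data. DESeq2 1.42.0, other scalings and filters, a replicate block and left-out libraries were the alternatives.

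Genes were named by size if called, at mean log2 CPM 3 or more and with both pDC libraries beyond all 6 classical ones, taking the 15 largest differences in each direction. Up to 4 called members of each of 38 gene lists, those with a stated role and 11 fixed genes were added; other names were chosen after their values were seen, and some genes that the rule takes are not reported here. The members and lists were chosen with earlier results of these data known. A gene at 0 in pDC and also in a whole classical group has no usable error and was not called. Cd209b, with 1 count in pDC and 553 in the classical libraries, had no usable error either (SE 983) and was not called. For such genes, not called does not mean equal. Positions and promoters are RefSeq's for GRCm38.p6, matched by Entrez identifier (13187 of the tested genes).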

Additional observations from a re-analysis of the deposited data

How the results depend on the processing

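Against a 1.5-fold threshold (glmTreat) the counts fell to 1696 genes higher and 2140 lower against the classical mean, 1670 and 2138 against Dec205, 1331 and 2158 against Esamlo, and 1449 and 2245 against Esamhi. With the 6 classical libraries as 1 group they were 1560 and 1930, the spread then holding the gaps between subsets. Leaving out 1 library in turn gave 2270 to 3649 higher and 2802 to 3605 lower against the mean, 2116 to 2951 and 2733 to 3091 against Dec205, 1537 to 2959 and 2434 to 3640 against Esamlo, and 1540 to 3080 and 2433 to 3657 against Esamhi; the lone library of a group is then assumed to vary like the others. Counts against Esamlo were 1537 higher without Esamlo replicate 2, and against Esamhi 1540 and 1591 higher without Esamhi replicate 1 or 2. Tlr9 ranged from -0.0122 (without pDC replicate 2, the one change of sign) to 0.665 and was not called in any setting. Of 40 genes followed singly, 12 calls were lost over all settings, by Etv6, Flt3, Irf8, Tlr7 and Clec10a, and none of the called ones reversed. Over all genes, 11 calls reversed with Dec205 left out of the mean, 1 without Esamlo and 3 without Esamhi. Same-numbered libraries deviated together with correlations of 0.00328 to 0.124. With 1 difference between replicates per group, such values cannot tell whether same-numbered libraries were paired. With the replicate block 2956 genes were higher and 3342 lower. Depth limits calls of genes near 0.151 to 0.229 CPM, and 2 libraries a group limit the rest.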
